A study of Mus musculus with 4 samples.

Results

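Ribosome biogenesis and nucleolar genes, 45 in all, were followed in RAW264.7 cells, a mouse macrophage line, that were kept alone or grown together with CT26, a colon carcinoma line of the mouse. The genes are a fixed list of symbols, grouped here by their known roles, and the list was drawn up with earlier results of these data known. All 45 symbols were found once in each of the 2 deposited tables, among 22554 genes common to both, and all 45 were among the 10202 genes tested. The study holds 4 messenger RNA libraries: RAW264.7 cells without tumour cells (mock 1 and mock 2) and RAW264.7 cells cocultured with CT26 (coculture 1 and coculture 2). Mock 1 and coculture 1 form pair 1, and mock 2 and coculture 2 form pair 2. Per the labels' protocols, the medium was DMEM for the macrophages and RPMI1640 for the tumour line. The length of the coculture, the separation of macrophages from tumour cells, and the origin of the replicates from 1 or several cultures stand as not given in the sources used here.

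Ribosomes are built in the nucleolus. RNA polymerase I (Pol I) copies the ribosomal DNA repeats into a long precursor RNA, which small nucleolar ribonucleoproteins (snoRNPs) modify and a large set of processing factors folds, cuts and dresses with ribosomal proteins, along separate routes for the small and the large subunit. The genes of this machinery are classical targets of MYC, and macrophages are known to raise MYC when they are activated. The question set by the design is how the transcripts of this machinery stood in macrophages with tumour cells beside those without.

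Levels are FPKM (fragments per kilobase, relative to all fragments of a library), so levels of different genes can be set side by side within a library. Values of a gene are given for mock 1 and 2 as those without CT26, then for coculture 1 and 2 as those with CT26. A difference is the coculture value minus the mock value, each as log2(FPKM + 1). Differences were fitted in limma over all 10202 genes with the pair as a block, ± gives limma's moderated SE over n = 2 pairs, and p-values were adjusted by Benjamini-Hochberg over all genes tested. They measure only spread between libraries, which may be technical. Libraries held an estimated 12200000 to 16200000 reads each. Of 12 macrophage markers, 11 were tested, and Csf1r stood at 397 to 637 FPKM, while Mertk stood at 0.028 FPKM or below. Of 13 epithelial markers, the sum was 0.143 and 0 FPKM in mock 1 and 2 and 0.167 and 0.0450 FPKM in coculture 1 and 2, with Epcam and Krt18 listed at 0 in every library. Of 12 mesenchymal markers, which a carcinoma line can express, the sum was 3.02 and 1.90 FPKM without CT26 and 2.74 and 2.11 FPKM with CT26, most of it Tagln. Fewer cells of a type and less RNA per cell cannot be told apart in such bulk libraries.

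The ribosome biogenesis genes were abundantly expressed and differed little between cocultured and mock macrophages. Of the 45, 0 passed the test in either direction, where 0.127% of all tested genes (13 of 10202) did, all of them higher. The smallest limma adjusted p among the members was 0.211. The fitted differences ran from -0.46 to 0.53, and 25 of the 45 lay within 0.1 of zero. Every one of the 45 95% intervals of the difference lay inside ±1, which is a 2-fold change, with a median half-width of 0.32. At an unadjusted p under 0.05, 3 members were higher (Rrp9, Utp4 and Nop16), beside 5.26% of all tested genes, and 1 was lower (Ubtf), beside 9.45%. No member differed by 1.5-fold or more in both pairs, where 4.57% of all tested genes did, and Rrp9 was the 1 member to reach 1.5-fold in a single pair.

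**Figure D1:**
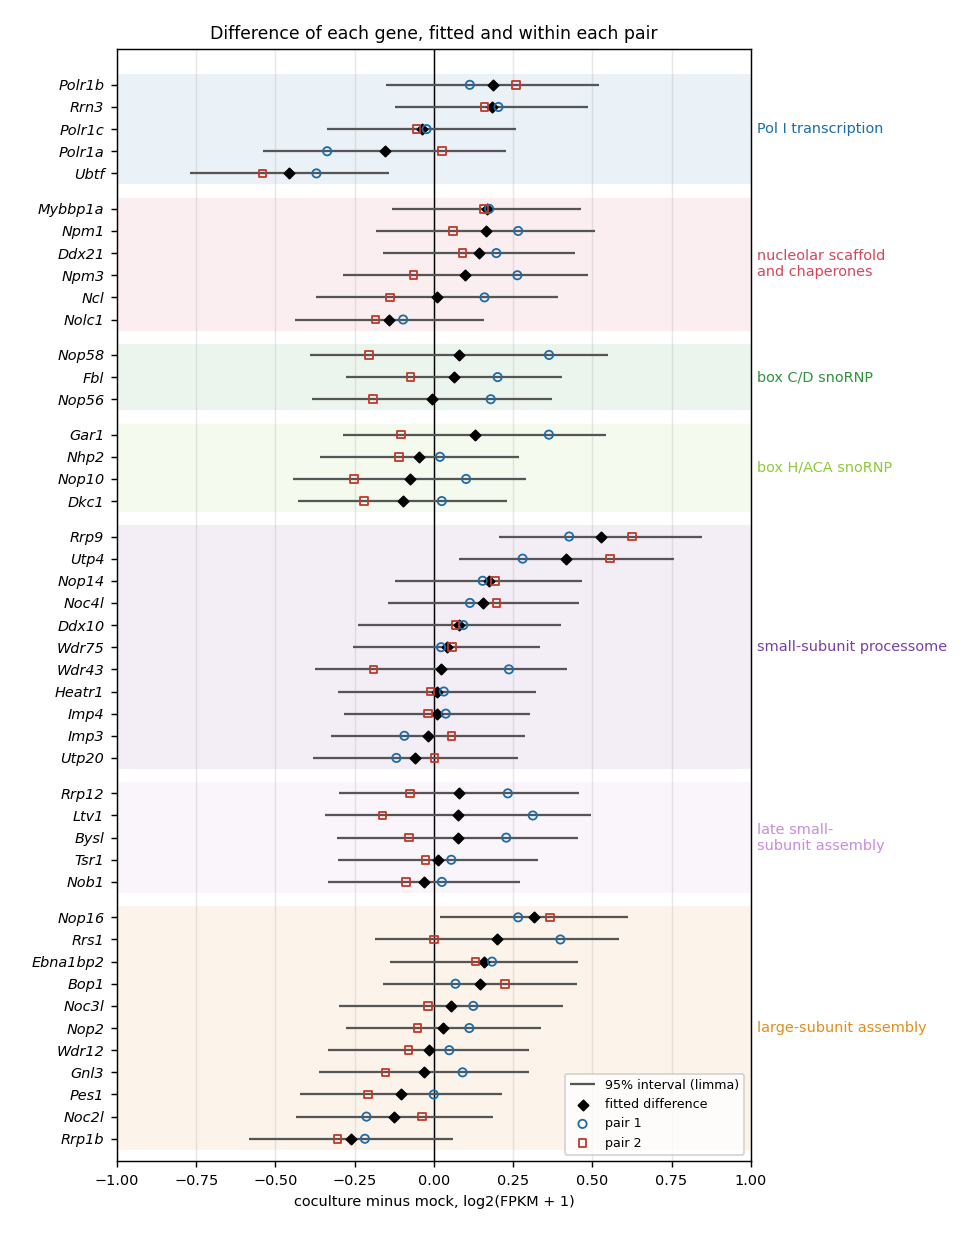
Difference of coculture from mock, in log2(FPKM + 1), for the 45 genes, ordered by role. Diamonds are fitted differences, bars their 95% limma intervals, circles pair 1 and squares pair 2; all bars lie inside ±1, and 4 bars (Rrp9, Utp4, Nop16 and Ubtf) do not cross zero.

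By level, the genes spanned from Noc3l, with a mean of 16.5 FPKM over the 4 libraries, to Ncl, with 399 FPKM. All 45 were above the median of the tested genes, 14.9 FPKM, and the median member lay at the 86.9th percentile. The sum of the 45 was 3935 and 3316 FPKM in mock 1 and 2 and 4328 and 3243 FPKM in coculture 1 and 2, or 1.02% and 0.882% of the FPKM total in mock and 1.08% and 0.833% in coculture. The coculture library of pair 1 thus held 1.10 times the sum of its mock, and that of pair 2 held 0.978 times the sum of its mock. Levels in mock 1 were above those in mock 2 for 40 of the 45 genes, but these libraries come from 2 tables with different sets of rows, which may have been normalized separately. The fitted differences rest on the contrast within each table; where all 4 values of a gene are set side by side, or groups are said to overlap or not, levels are compared across the tables.

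**Figure D2:**
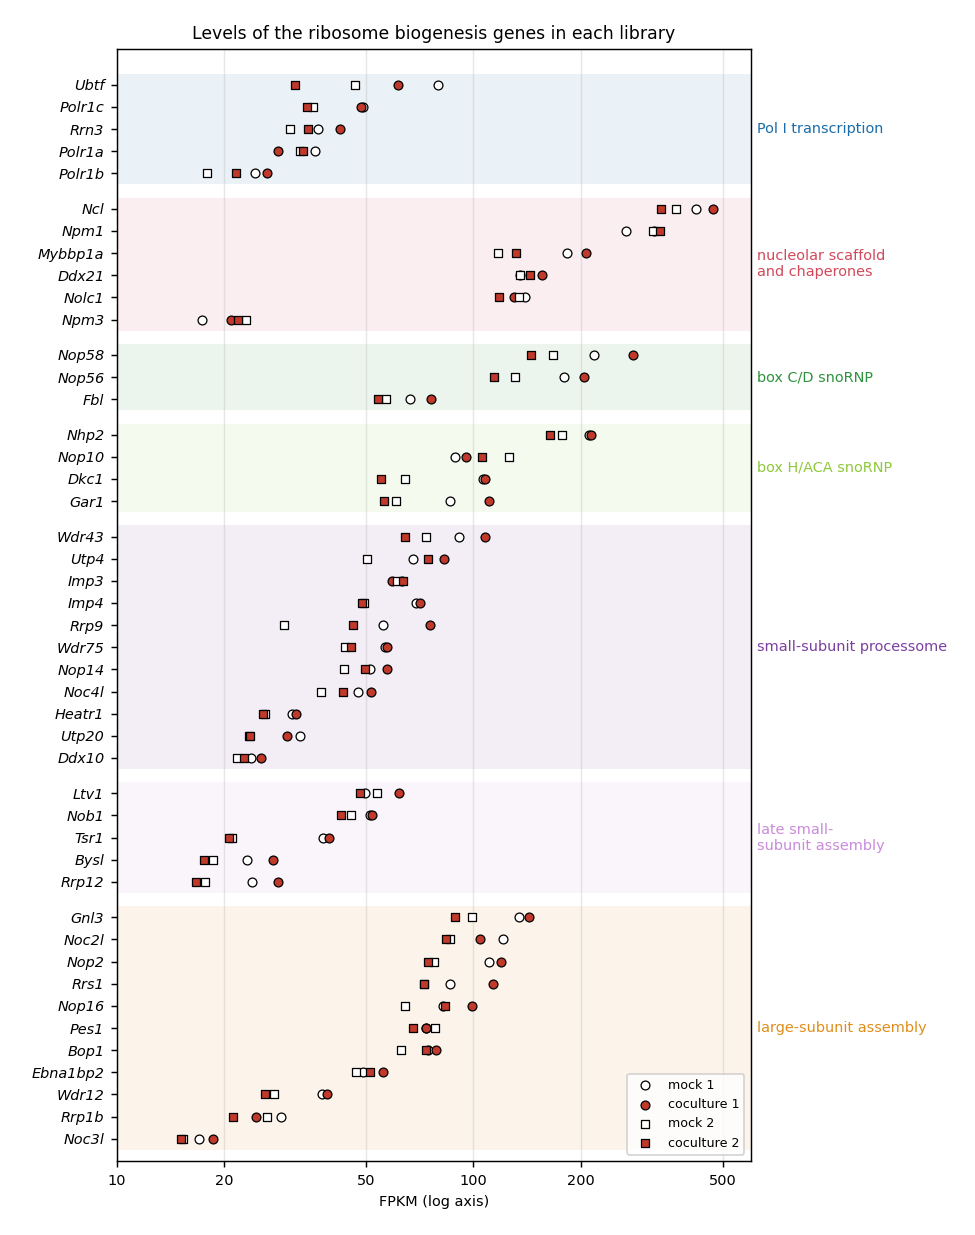
FPKM (log axis) of the 45 genes in each of the 4 libraries, ordered by role and level. Circles are pair 1 and squares pair 2, open for mock and filled for coculture; for most genes the open and filled symbols of a pair lie closer together than the pairs do.

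The promoters of 40 members were found in the RefSeq table (GRCm38.p6); those of Bop1, Fbl, Npm1, Rrp12 and Rrs1 were not. The 250 bases before each start were searched on both strands for CACGTG, the E-box that MYC with MAX binds, which is its own reverse complement. They were also searched on both strands for CCGGAAG, a core motif of ETS factors. CACGTG was found in 3 of the 49 member promoters (6.12%), beside 6.02% of all 32851 promoters. The 3 belong to Rrn3, Nop2 and Imp4. CCGGAAG was found in 9 of the 49 (18.4%), beside 6.91% of all promoters. Counted by gene, the 40 matched members held CCGGAAG in 22.5% of cases and CACGTG in 7.5%, against 17.9% and 10.4% of the 8249 tested genes with a promoter in the table. The sequences below show the 3 E-box promoters, and that of Utp4, chosen after its values were seen because it had the largest difference among the members with CCGGAAG. Each is a stretch of 150 of the 250 bases searched, placed so as to hold the motif, on the plus strand, which is the strand of all 4 genes, with the letters of either motif in capitals.
Rrn3, chr16:13780449-13780598: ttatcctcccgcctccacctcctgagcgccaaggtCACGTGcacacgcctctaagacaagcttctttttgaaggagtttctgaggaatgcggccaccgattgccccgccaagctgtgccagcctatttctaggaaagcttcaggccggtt
Nop2, chr6:125131733-125131882: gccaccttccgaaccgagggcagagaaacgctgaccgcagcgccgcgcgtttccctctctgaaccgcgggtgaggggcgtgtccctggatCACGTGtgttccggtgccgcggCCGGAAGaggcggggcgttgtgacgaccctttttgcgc
Imp4, chr1:34439633-34439782: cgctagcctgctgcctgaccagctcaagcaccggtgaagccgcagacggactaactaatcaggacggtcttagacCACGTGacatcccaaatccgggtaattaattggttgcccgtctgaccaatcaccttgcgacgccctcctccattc
Utp4, chr8:106893490-106893639: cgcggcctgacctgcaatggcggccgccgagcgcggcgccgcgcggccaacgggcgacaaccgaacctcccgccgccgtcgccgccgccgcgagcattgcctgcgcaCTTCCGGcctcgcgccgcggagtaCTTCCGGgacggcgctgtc

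The E-box began 215 bases before the start in Rrn3, 121 in Imp4 and 60 in Nop2, where a CCGGAAG followed at 38. Utp4 held 2 copies of CCGGAAG on the opposite strand, at 43 and 19 bases before the start. The 3 members with CACGTG had differences of 0.18 (Rrn3), 0.030 (Nop2) and 0.0099 (Imp4), inside the range of the 37 matched members without it, whose median was 0.014. Across all tested genes, the median difference was -0.067 for the 858 genes with CACGTG and -0.074 for the 7391 without. A match of letters is a description of the window and not a bound site.

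Pol I transcription was represented by 5 members, of which Rrn3 and Polr1b were higher in both pairs, Ubtf and Polr1c lower in both, and Polr1a differed in direction. Ubtf encodes the architectural factor that keeps ribosomal DNA open for Pol I. It measured 79.6 and 46.4 FPKM without CT26 and 61.4 and 31.6 FPKM with CT26, the lowest difference of all 45 members at -0.46 ± 0.12 (95% interval -0.77 to -0.14, limma adjusted p = 0.241). Each coculture library was below its own mock, but coculture 1 was above mock 2. In unblocked fits across the tables the difference was 0.013 without coculture 2 and -0.072 without mock 1, beside -0.84 without mock 2 and -0.92 without coculture 1. Rrn3, which readies Pol I for initiation and carries the E-box shown above, measured 36.6 and 30.5 FPKM without CT26 and 42.3 and 34.2 FPKM with CT26 (0.18 ± 0.11, limma adjusted p = 0.514).

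The subunit genes of Pol I had differences on both sides of zero. Polr1b, the second-largest subunit, measured 24.3 and 17.9 FPKM without CT26 and 26.4 and 21.6 FPKM with CT26, a difference of 0.19 ± 0.13 (limma adjusted p = 0.541). Polr1a, the largest subunit, measured 36.0 and 32.6 FPKM without CT26 and 28.3 and 33.2 FPKM with CT26, so it was lower in pair 1 and level in pair 2. Polr1c, a subunit shared with RNA polymerase III, differed by -0.023 in pair 1 and -0.055 in pair 2.

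The 6 nucleolar scaffold and chaperone genes included the most abundant members. Ncl, which encodes nucleolin, a major nucleolar RNA-binding protein, measured 422 and 369 FPKM without CT26 and 471 and 335 FPKM with CT26. It was higher in pair 1 and lower in pair 2, and the fitted difference was 0.011 ± 0.14 (95% interval -0.37 to 0.39). Npm1, which encodes the nucleolar chaperone nucleophosmin, measured 267 and 319 FPKM without CT26 and 322 and 333 FPKM with CT26, so that both coculture values were above both mock values (0.16 ± 0.13, limma adjusted p = 0.596). The gene is known to have processed pseudogene copies, and how the authors' counting treated reads that fit several places is not given in the sources used here.

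Ddx21, an RNA helicase of the nucleolus, measured 135 and 135 FPKM without CT26 and 155 and 144 FPKM with CT26 (0.14 ± 0.11, limma adjusted p = 0.596). Mybbp1a, a nucleolar regulator of transcription, measured 183 and 118 FPKM without CT26 and 207 and 131 FPKM with CT26, a similar step in each pair (0.17 and 0.16). Nolc1, which escorts snoRNPs, was lower in both pairs, with differences of -0.097 and -0.18, at 118 to 139 FPKM. Npm3, a relative of Npm1, was far less abundant at 17.3 to 22.9 FPKM and went in opposite directions in the pairs.

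The 7 snoRNP core genes split the pairs completely. Box C/D snoRNPs methylate ribosomal RNA and box H/ACA snoRNPs convert uridines to pseudouridines. All 3 box C/D genes and all 4 box H/ACA genes were higher in coculture 1 than in mock 1 and lower in coculture 2 than in mock 2, with medians over the 7 of 0.18 in pair 1 and -0.19 in pair 2. In all tested genes, 37.4% were higher in pair 1, 41.6% were higher in pair 2 and 36.4% differed in direction. After rescaling to a common total or quantile normalization, 5 of the 7 were higher in pair 1, and under either setting 0 were higher in pair 2. Of all tested genes, 29.8% and 36.0% were higher in pairs 1 and 2 after rescaling, and 44.8% and 44.2% after quantile normalization.

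Fbl, the box C/D methyltransferase fibrillarin, measured 66.2 and 56.8 FPKM without CT26 and 76.2 and 53.9 FPKM with CT26 (0.064 ± 0.13, limma adjusted p = 0.841). Nop56, a scaffold of the same particle, measured 180 and 131 FPKM without CT26 and 204 and 114 FPKM with CT26, with a fitted difference of -0.0060 ± 0.14. Its partner Nop58 had the widest gap between pairs of the 3, at 0.36 in pair 1 and -0.20 in pair 2. Dkc1, the box H/ACA pseudouridine synthase dyskerin, measured 106 and 64.4 FPKM without CT26 and 108 and 55.1 FPKM with CT26 (-0.098 ± 0.12, limma adjusted p = 0.742). Its partners Gar1, Nhp2 and Nop10 had fitted differences of 0.13, -0.046 and -0.076.

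In GENCODE M21 (GRCm38), 7 of the 45 members hold snoRNA genes inside their own bounds on the same strand: Nop56 holds 5, Nop58 holds 4, Ncl, Gnl3 and Wdr43 hold 3 each, Tsr1 holds 2 and Dkc1 holds 1. These 7 were also all higher in pair 1 and all lower in pair 2, with medians of 0.16 and -0.19. Dkc1 and Tsr1 were higher in pair 1 by only 0.025 and 0.055. Signs this close to zero depend on the scaling: rescaling to a common total moved the pair 1 median of all tested genes from -0.089 to -0.15. Of all tested genes, 37.4% were higher in pair 1 and 41.6% in pair 2. Of the 38 other members, 29 were higher in pair 1 and 18 in pair 2. Nop56, Nop58 and Dkc1 belong to both sets of 7, so the sets are not independent.

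The small-subunit processome is the complex that forms on the front part of the precursor RNA. Of its 11 members, 6 were higher in both pairs and 0 lower in both, with a median difference of 0.040. Rrp9, the protein that binds the U3 snoRNA, measured 55.8 and 29.4 FPKM without CT26 and 75.4 and 45.9 FPKM with CT26, or 1.35 and 1.56 times its mock. This was the largest difference among the members, at 0.53 ± 0.12 (95% interval 0.21 to 0.85, limma adjusted p = 0.211). Leaving out single libraries, without the block and so across the tables, gave 0.075 without mock 2, 0.17 without coculture 1, 0.88 without coculture 2 and 0.98 without mock 1. Each coculture library was above its own mock, though mock 1 was above coculture 2. In GENCODE M21, exons of Rrp9 overlap those of Parp3 on the other strand, and use of strand in the counting is not given in the sources used here. Parp3 measured 2.79 and 5.13 FPKM without CT26 and 3.39 and 10.5 FPKM with CT26, and the share of its reads in the Rrp9 values was not tested.

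Utp4, a subunit that binds the growing precursor early and that carries the 2 CCGGAAG copies shown above, measured 67.7 and 50.2 FPKM without CT26 and 82.4 and 74.4 FPKM with CT26, with both coculture values above both mock values. Its difference was 0.42 ± 0.13 (95% interval 0.079 to 0.76, limma adjusted p = 0.284), and it ran from 0.21 without mock 2 to 0.63 without mock 1. Nop14 measured 51.2 and 43.4 FPKM without CT26 and 57.0 and 49.7 FPKM with CT26 (0.17 ± 0.11, limma adjusted p = 0.522), and its binding partner Noc4l differed by 0.16, with 0.11 and 0.20 in the pairs. Wdr75 and Ddx10 were higher in both pairs by no more than 0.093. Heatr1, Imp3, Imp4, Utp20 and Wdr43 went in opposite directions, with fitted differences from -0.058 to 0.023.

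Late small-subunit factors carry the particle to the cytoplasm and finish its RNA. All 5 (Bysl, Ltv1, Tsr1, Nob1 and Rrp12) were higher in pair 1 and lower in pair 2, with medians of 0.23 and -0.079. Of all tested genes, 37.4% were higher in pair 1 and 41.6% in pair 2. In pair 1, Nob1 and Tsr1 were higher by only 0.025 and 0.055. Rescaling to a common total moved the pair 1 median of all tested genes from -0.089 to -0.15, so signs this close to zero depend on the scaling. Nob1, the endonuclease that makes the final cut of the small-subunit RNA, measured 51.1 and 45.2 FPKM without CT26 and 52.0 and 42.5 FPKM with CT26 (-0.031 ± 0.11, limma adjusted p = 0.916). The other fitted differences in the group lay between 0.014 (Tsr1) and 0.079 (Rrp12).

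Large-subunit assembly had 11 members, of which 4 were higher in both pairs and 3 lower in both, beside 21.5% and 42.2% of all tested genes. Rrs1, a factor of early large-subunit assembly and 1 of those 4, measured 85.9 and 72.5 FPKM without CT26 and 114 and 72.5 FPKM with CT26. It was 0.40 higher in pair 1 and level in pair 2 (0.20 ± 0.14, limma adjusted p = 0.561). Nop16, a nucleolar protein of large-subunit precursors, measured 82.1 and 64.2 FPKM without CT26 and 98.9 and 83.1 FPKM with CT26, with both coculture values above both mock values, the nearest being 83.1 against 82.1. Its difference was 0.32 ± 0.11 (95% interval 0.019 to 0.61, limma adjusted p = 0.323), and it ran from 0.14 without mock 2 to 0.49 without mock 1. Rrp1b was lower in both pairs, from 28.8 and 26.4 FPKM alone to 24.6 and 21.2 FPKM with the tumour line, with no overlap between the groups (-0.26 ± 0.12, 95% interval -0.58 to 0.061, limma adjusted p = 0.403). In all, 8 of the 45 members had groups that did not overlap, beside 31.7% of all tested genes.

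Pes1, Bop1 and Wdr12 encode the 3 proteins of the PeBoW complex, which acts in large-subunit RNA processing. The 95% intervals of all 3 include zero and overlap, and differences between the 3 genes were not tested. Bop1 measured 74.6 and 62.7 FPKM without CT26 and 78.3 and 73.4 FPKM with CT26 (0.15 ± 0.11, limma adjusted p = 0.594). Pes1 measured 73.8 and 78.2 FPKM without CT26 and 73.8 and 67.6 FPKM with CT26 (-0.10 ± 0.12, limma adjusted p = 0.717). It was level in pair 1, at -0.00048, and lower in pair 2, and it is counted among the genes lower in both pairs. Wdr12 differed by 0.049 and -0.081 in the pairs. Of the remaining large-subunit genes, Ebna1bp2 was higher in both pairs (0.16), Noc2l lower in both (-0.13), and Nop2, Gnl3 and Noc3l, a methyltransferase, a GTPase and an assembly factor, differed in direction with fitted values from -0.031 to 0.053.

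Taking the 45 by direction alone, 15 were higher in both pairs (33.3%, beside 21.5% of all tested genes) and 6 were lower in both (13.3%, beside 42.2%). After rescaling to a common total, 13 were higher and 15 lower in both pairs, and after median centring 20 and 3, so the balance of the 2 counts depends on the scaling. The other 24 differed in direction, and 21 of these were higher in pair 1 and lower in pair 2. In pair 1, 36 of 45 were higher in coculture (37.4% of all tested genes were), with a median of 0.11 beside -0.089 for all tested genes. In pair 2, 18 of 45 were higher (41.6% of all tested genes were), with a median of -0.038 beside -0.056. Over the 45 genes, which share libraries and are not independent, pair 1 and pair 2 differences correlated with r = 0.41 (Pearson) and rho = 0.25 (Spearman). After rescaling to a common total, 28 were higher in pair 1 and 15 in pair 2, beside 29.8% and 36.0% of all tested genes. After median centring, 40 and 22 were higher, beside 51.5% and 46.5% of all tested genes. Coculture 2 had the lowest estimated depth, 12200000 reads, and the highest level of the abundant macrophage gene Lyz2, 10287 FPKM against 3529 to 7088 in the others; the part of either in the difference between pairs was not tested.

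**Figure D3:**
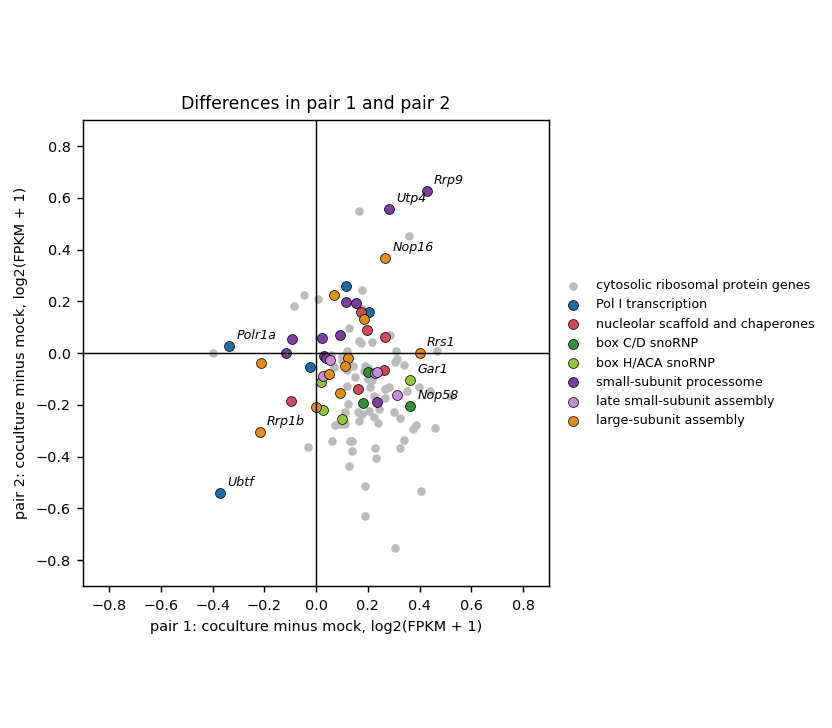
Difference in pair 2 against difference in pair 1 (coculture minus mock, log2(FPKM + 1)) for the 45 genes, coloured by role, with cytosolic ribosomal protein genes in grey. The lower right of the plot, higher in pair 1 and lower in pair 2, holds 21 of the 45 genes; Rrp9, Utp4 and Nop16 lie at the upper right, and Ubtf at the lower left.

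A list of 123 further ribosome biogenesis factors was set by role, of which 120 were found in both tables and tested, and 0 passed the test in either direction. Their median difference was 0.028 (0.079 in pair 1 and -0.042 in pair 2), with 36 higher in both pairs (30%, beside 21.5% of all tested genes) and 23 lower in both (19.2%, beside 42.2%). At an unadjusted p under 0.05 there were 6 of the 120 higher, beside 5.26% of all tested genes, and 0 lower, beside 9.45%. The largest were Riok3, a kinase of late small-subunit particles, with 24.2 and 25.1 FPKM without CT26 and 38.9 and 35.6 FPKM with CT26 (0.57 ± 0.12, limma adjusted p = 0.199), and Esf1, a nucleolar processing factor, with 25.7 and 26.4 FPKM without CT26 and 39.6 and 36.7 FPKM with CT26 (0.53 ± 0.12, limma adjusted p = 0.210). Efl1, the GTPase that helps to release a late large-subunit factor, differed by 0.47 ± 0.13, and Nol10 by 0.44 ± 0.15. On the other side, the helicase genes Ddx51 and Ddx31 differed by -0.36 ± 0.15 and -0.32 ± 0.14, Surf6 by -0.30 and Pih1d1, a snoRNP assembly factor, by -0.29.

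The products that these factors assemble, the cytosolic ribosomal proteins, were also mostly higher in pair 1 and lower in pair 2. Of 74 genes, 70 were higher in pair 1 and 15 in pair 2, with medians of 0.19 and -0.14, and 0 passed the test. The shares over all tested genes were 37.4% higher in pair 1, 41.6% higher in pair 2 and 0.127% passing the test. Mitochondrial ribosomal protein genes, which serve a separate ribosome, had medians of 0.016 and -0.020, with 40 of 78 higher in pair 1 and 35 in pair 2. Whether the lists differ from each other was not tested.

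**Figure D4:**
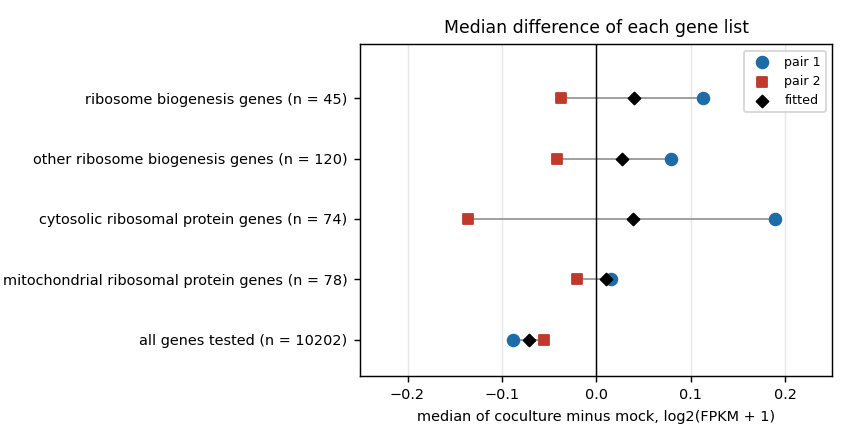
Median of coculture minus mock (log2(FPKM + 1)) for 5 gene lists, in pair 1 (circles), in pair 2 (squares) and fitted (diamonds). The cytosolic ribosomal protein genes have the widest gap between pairs, 0.19 and -0.14, and the 45 ribosome biogenesis genes lie at 0.11 and -0.038.

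In the MYC network, which regulates ribosome biogenesis genes, the differences of the 11 genes tested ran from -0.99 to 3.53. Their median was -0.071, beside -0.072 for all tested genes. Myc measured 5.16 and 1.03 FPKM without CT26 and 43.3 and 36.9 FPKM with CT26, a difference of 3.53 ± 0.35 (limma adjusted p = 0.071). The mock 2 value of Myc lay close to the pseudocount of 1, so the size of this difference depends on that setting. Mycn, a close paralog, was much the more abundant of the 2 in every library, with 340 and 388 FPKM without CT26 and 268 and 349 FPKM with CT26 (-0.25 ± 0.13, limma adjusted p = 0.442). The third family gene, Mycl, did not exceed 0.156 FPKM. The family summed to 345 and 389 FPKM without CT26 and 311 and 386 FPKM with CT26, and Myc made up 1.5% and 0.265% of it in mock and 13.9% and 9.56% in coculture. The family's summed transcript level, most of it Mycn, was no higher in coculture than in mock in either pair. That of Myc alone was higher in both pairs. These are transcript levels and not MYC protein or activity, and their link to the ribosome biogenesis genes was not tested.

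Of the partners and antagonists, Max, the shared dimer partner, measured 72.1 and 63.7 FPKM without CT26 and 72.4 and 68.7 FPKM with CT26 (0.057 ± 0.11). Mnt, a repressor that competes for MAX, measured 10.9 and 15.9 FPKM without CT26 and 6.54 and 11.6 FPKM with CT26 (-0.54 ± 0.15, limma adjusted p = 0.257), and Mxd1, another such repressor, measured 1.20 and 2.26 FPKM without CT26 and 1.07 and 2.14 FPKM with CT26. Mxd3 and Mxd4, of the same repressor family and chosen after their values were seen, differed by -0.99 ± 0.33 and -0.69 ± 0.18. None of the 11 network genes tested passed the test.

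**Figure D5:**
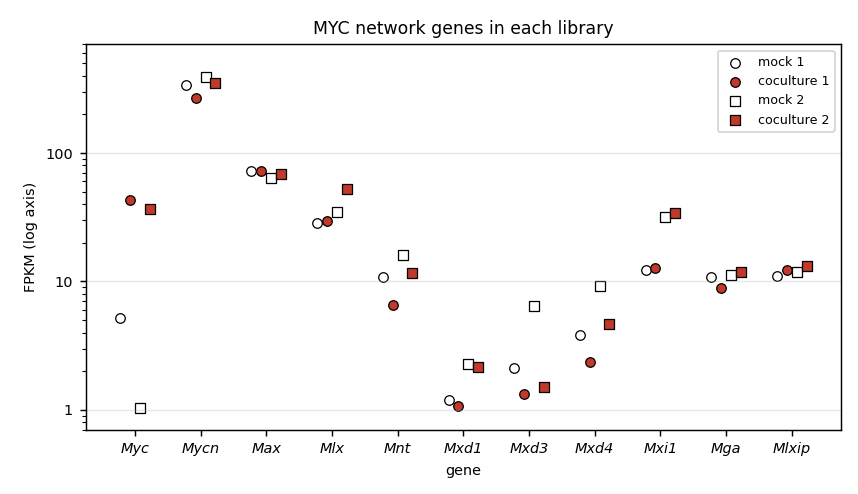
FPKM (log axis) of 11 MYC network genes in the 4 libraries; circles are pair 1 and squares pair 2, open for mock and filled for coculture. Myc is higher in both coculture libraries (43.3 and 36.9 FPKM against 5.16 and 1.03) but stays below Mycn (268 to 388 FPKM) in all 4.

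By GENCODE M21 exon lengths, the least covered member had an estimated 310 reads or more in each library. Exons of 19 of the 45 overlap another gene on the other strand in GENCODE M21, and their median difference was 0.0099, beside 0.077 for the 26 without such an overlap.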

How the data were processed

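The authors deposited FPKM as a table per replicate number, holding its mock and its coculture column. The submitters' processing notes list Trim Galore, Subread and featureCounts, and name the build hg38 despite mouse symbols in both tables; annotation, versions and gene lengths: not given in the sources used here. Rows with no symbol (23, at most 5.2e-06% of a library) or with repeated symbols (287 rows, 106 symbols, at most 1.07%) were dropped from the replicate 1 values, leaving 22554 genes common to both. The 10202 with 1 FPKM or more in 2 or more libraries were fitted as log2(FPKM + 1) in limma 3.58.1 (R 4.3.3; trended prior, two-sided, 1 residual degree of freedom, prior of 3.43) and called where the Benjamini-Hochberg adjusted p was under 0.05. Because normalization may differ between tables, the pair entered as a block; pair mates also deviated together (correlation of 0.76 across genes). The fit was tested on simulated data with planted differences far larger than those of the members. That test therefore does not bear on small differences. The members and lists were chosen with earlier results of these data known. Members given with all values were, per role, up to 3 with the largest difference whose sign was shared by the pairs, plus 12 set by name. Myc, Max, Mxd1 and Mnt were also given so. Of other factors, the 4 largest each way were named, with all values for Riok3 and Esf1 and differences only for the rest. Depth was estimated from the smallest FPKM steps and GENCODE M21 exon lengths, so it is approximate. Alternatives covered pseudocounts, filters, scalings, prior, block and leaving out each library, the last unblocked.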

Additional observations from a re-analysis of the deposited data

How the results depend on the processing

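No member was called under any of the 13 alternatives. Over all genes, limma called 13 higher and 0 lower, 85 higher and 18 lower after median centring (103 in all), 46 after quantile normalization, 26 with at least 5 FPKM, 25 after rescaling to a common total, 22 with a pseudocount of 0.1, 1 without the variance trend, 1 without the replicate block and 0 with no filter on low values (1620 at an unadjusted p under 0.05). Without any single library, unblocked, it called 0 (176 to 523 at an unadjusted p under 0.05). The members' median of 0.040 ran from -0.17 without coculture 1 to 0.26 without coculture 2, and was 0.19 without mock 1 and -0.11 without mock 2, all unblocked and so across the 2 tables. Rescaled, it was -0.014, beside -0.13 for all genes. Members lower in both pairs numbered 6, but 15 after rescaling, 10 after quantile normalization and 3 after centring. Without single libraries, counts over both pairs could not be had. Of the named members, Ncl turned to -0.045 after rescaling and -0.12 after quantile normalization, and Nob1 and Nop56 to 0.034 and 0.060 after centring. Without single libraries the ranges that crossed zero were -0.23 to 0.26 (Ncl), -0.17 to 0.11 (Nob1), -0.42 to 0.41 (Nop56), -0.58 to 0.38 (Dkc1), -0.18 to 0.31 (Fbl), -0.16 to 0.49 (Mybbp1a), -0.025 to 0.40 (Polr1b), -0.12 to 0.52 (Rrs1) and -0.92 to 0.013 (Ubtf). The causes were not tested. With the pair block removed the smallest member adjusted p was 0.9996.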

Other observations

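RNA polymerase III makes transfer RNAs and a short ribosomal RNA of the large subunit. Of 14 genes of its subunits and factors, 4 were higher and 8 lower in both pairs, beside 21.5% and 42.2% of all tested genes. Their median was -0.075, close to that of all tested genes (-0.072), and 0 passed the test, where 0.127% of all tested genes did. The highest and the lowest of the 14, chosen after their values were seen, were Polr3d and Polr3gl. Polr3d, a subunit gene, measured 25.2 and 16.7 FPKM without CT26 and 36.4 and 20.7 FPKM with CT26 (0.40 ± 0.13, limma adjusted p = 0.300), and Polr3gl measured 24.6 and 49.0 FPKM without CT26 and 20.0 and 40.0 FPKM with CT26 (-0.29 ± 0.12, limma adjusted p = 0.360). The RNA exosome, which trims precursor RNA, had 14 genes with a median of -0.0060. Of these, 1 was higher and 4 were lower in both pairs, beside 21.5% and 42.2% of all tested genes.

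Mrpl52, a mitochondrial ribosomal protein gene chosen after its values were seen, measured 107 and 71.6 FPKM without CT26 and 195 and 115 FPKM with CT26 (0.77 ± 0.12, limma adjusted p = 0.127), the largest difference among the 78 genes of that list, while the list's median was 0.011.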
